A study of Drosophila melanogaster with 3 samples.

Results

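Small nucleolar RNA (snoRNA) genes and the genes that carry them were examined in chromatin immunoprecipitation followed by sequencing (ChIP-seq) for Hr51, a Drosophila nuclear receptor also called unfulfilled. The members were all 269 genes of biotype snoRNA on the chromosome arms in the FlyBase annotation 6.54 (Ensembl release 115), of 18164 annotated genes there without transposable elements. The rule that selects them uses the annotation and no measured value. The material was whole embryos aged 0 to 24 h, males and females pooled, of 1 transgenic line in which Hr51 carries GFP at its C-terminus. The labels describe the precipitation as anti-GFP in one field and name the antibody as Hr51 in another, and they do not say whether untagged Hr51 was also present. There were 3 biological replicates, all of this 1 genotype and age, and no control library among the samples. Chromatin was sonicated to fragments of 200 to 800 bp, longer than many of the summit distances given below. How finely a summit places binding was not tested. The whole embryo mixes all its cell types, and which of them the peaks come from was not tested.

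snoRNAs guide the chemical modification of other RNAs, mainly ribosomal RNA. C/D snoRNAs direct methylation of riboses, H/ACA snoRNAs direct the change of uridine to pseudouridine, and the related scaRNAs act on the spliceosomal RNAs in Cajal bodies. A few, such as U3, are needed for the cleavage of the ribosomal RNA precursor instead. In flies most snoRNAs have no promoter of their own: they are cut out of introns of a host gene after splicing, so the host's promoter drives them. Many hosts encode ribosomal proteins, and others, named Uhg, are non-coding genes whose spliced RNA serves as a carrier.

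By name, 114 of the 269 members were H/ACA snoRNAs, 109 were C/D snoRNAs, 16 were scaRNAs, and the names of 30 gave no class. The genes were short, with a median length of 134 bp (46 to 316 bp). Of the 269, 247 lay within a host gene on the same strand and 22 did not. The 247 fell into 92 hosts, of which 28 encoded cytosolic ribosomal proteins by name, 54 encoded other proteins and 10 were non-coding. Of the 247, 227 lay wholly in introns and 20 overlapped an annotated exon. snoRNA genes of 1 host share its promoter and often its peak, so they are not separate observations, and 37 hosts held more than 1.

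The names were checked against the letters of the genes. The short sequence ACA stood 3 bases before the 3' end in 106 of the 114 genes named H/ACA (93%), and in 2 of the 109 named C/D (1.83%). Box C (TGATGA, sought in the first 20 bases) together with box D (CTGA, in the last 16) stood in 76 of the 109 named C/D (69.7%) and in 0 of the 114 named H/ACA. Examples of both classes, all from hosts with a peak at the promoter, are shown on the sense strand of Release 6 of the genome, with these boxes in capitals. snoRNA:U49:66Da lies in the ribosomal protein gene RpL14 at chr3L:8601473-8601552, and snoRNA:Me28S-A774b in RpS12 at chr3L:13023580-13023652. The H/ACA genes are snoRNA:Psi18S-1275 of RpS29 at chr3R:9778398-9778537 and snoRNA:Psi28S-1232 of RpL17 at chrX:6743675-6743815.
snoRNA:U49:66Da: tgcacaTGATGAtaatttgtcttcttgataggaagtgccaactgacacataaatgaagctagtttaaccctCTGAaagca
snoRNA:Me28S-A774b: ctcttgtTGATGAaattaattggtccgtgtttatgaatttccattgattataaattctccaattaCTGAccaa
snoRNA:Psi18S-1275: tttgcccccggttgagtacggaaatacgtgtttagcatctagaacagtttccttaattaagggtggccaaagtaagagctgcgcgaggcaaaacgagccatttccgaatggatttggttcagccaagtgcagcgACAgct
snoRNA:Psi28S-1232: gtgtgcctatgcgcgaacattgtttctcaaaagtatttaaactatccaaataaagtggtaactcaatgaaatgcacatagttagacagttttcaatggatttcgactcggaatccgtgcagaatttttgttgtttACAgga

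The peaks of these 4 genes lay not over the printed bases but at the start of the host. Promoters of 6 hosts are therefore shown next, from 150 bases before to 25 after the transcription start site (TSS), 5' to 3' on the host's strand. RpL14 (chr3L:8600856-8601031), RpL28 (chr3L:3222935-3223110), RpS12 (chr3L:13023202-13023377) and RpS7 (chr3R:30208923-30209098) had a peak in the reproducible list there. Sf3b3, a splicing factor gene with 4 snoRNA genes (chr3L:833360-833535), and Arpc2, an actin-nucleation gene with 17 (chr2L:20416907-20417082), did not. Capitals mark TATCGATA, the consensus that the factors DREF and BEAF-32 bind, and its core CGATA, on either strand.
RpL14: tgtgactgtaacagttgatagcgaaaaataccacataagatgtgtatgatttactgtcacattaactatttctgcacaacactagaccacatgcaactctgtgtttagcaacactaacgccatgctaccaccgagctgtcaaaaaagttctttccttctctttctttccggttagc
RpL28: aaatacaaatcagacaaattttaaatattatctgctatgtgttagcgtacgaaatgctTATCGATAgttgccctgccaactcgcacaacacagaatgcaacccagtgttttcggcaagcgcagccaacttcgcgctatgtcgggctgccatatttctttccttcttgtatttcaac
RpS12: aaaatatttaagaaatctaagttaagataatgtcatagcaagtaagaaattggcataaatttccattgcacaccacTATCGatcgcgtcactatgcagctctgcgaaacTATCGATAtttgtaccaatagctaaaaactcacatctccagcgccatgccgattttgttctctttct
RpS7: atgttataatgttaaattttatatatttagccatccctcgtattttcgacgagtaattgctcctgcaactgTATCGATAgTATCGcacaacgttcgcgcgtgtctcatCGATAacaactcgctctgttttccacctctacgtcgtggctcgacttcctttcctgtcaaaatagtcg
Sf3b3: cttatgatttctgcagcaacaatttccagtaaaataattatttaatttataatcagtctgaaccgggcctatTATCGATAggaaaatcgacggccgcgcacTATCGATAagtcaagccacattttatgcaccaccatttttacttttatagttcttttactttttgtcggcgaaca
Arpc2: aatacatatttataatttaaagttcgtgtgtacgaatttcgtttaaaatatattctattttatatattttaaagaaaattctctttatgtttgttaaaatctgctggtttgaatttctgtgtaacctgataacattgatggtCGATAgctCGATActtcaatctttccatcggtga
The full consensus stood at -92 to -85 from the TSS in RpL28, where the summit was at -56. In RpS12 it stood at -41 to -34 with the summit at -34, and in RpS7 at -79 to -72 with the summit at -21. RpL14 had the strongest peak of these promoters and neither capital motif in the printed bases, while Sf3b3 had the full consensus at -78 to -71 and again at -49 to -42 without a reproducible peak.

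Peaks were read from 5 lists on genome build dm6. The list filtered for reproducibility between replicates by the irreproducible discovery rate (IDR) held 3496 peaks. The pooled list and the list of each replicate held 30000 peaks each and include background by design. Signal is the authors' value per peak; it has no common scale between lists and is used as a rank, rank 1 being the highest. In the IDR list it ran down to 77.31 with a median of 118.2. For each replicate, the 3496 peaks of highest signal, called its top list, stand beside the IDR list. Depth is unknown, since the lists carry no counts of reads. A gene was counted when the summit, the highest point of a peak, lay within 500 bp.

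snoRNA genes themselves were mostly without a reproducible peak. An IDR summit lay within 500 bp of 16 of the 269 snoRNA genes (5.95%), against 20.6% of all other annotated genes, which are mostly far longer and whose window includes their own promoter. The top lists of replicates 1, 2 and 3 gave 15, 14 and 12 snoRNA genes, a mean of 13.7 ± 1.53 (SD, n = 3). Among other short RNA genes, the share was 4.48% of 290 tRNA genes and 25% of 32 small nuclear RNA genes. The share of snoRNA genes was thus close to that of tRNA genes. IDR summits backed by the top lists of replicates 2 and 3 alone, that is without replicate 1, numbered 2074 of the 3496. With this shorter list the count was 10 of 269.

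Few summits lay inside a snoRNA gene. The median gene of 134 bp is short beside the 500 bp searched on each side, which lowers this count by width alone. Exactly 1 gene, snoRNA:U3:9B, had an IDR summit inside it, and 7 had a pooled one. The median distance from a snoRNA gene to the nearest IDR summit was 3953 bp, and 223 of the 269 genes were more than 1000 bp from any. These distances were not measured for other genes. Closest to the limit of the window, snoRNA:Or-ACA6 and snoRNA:U49:66Da were counted at 498 bp, whereas snoRNA:Me18S-C1096 at 507 bp, snoRNA:Psi28S-2648 at 540 bp and snoRNA:Psi18S-1295 at 608 bp were not.

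The pooled list counted more genes, which its length, 30000 peaks against 3496, sets at least in part. The share of all annotated genes near a pooled summit was not counted. A pooled summit lay within 500 bp of 91 of the 269 snoRNA genes (33.8%), against 49% of tRNA genes. The full lists of replicates 1, 2 and 3 gave 96, 81 and 80, a mean of 85.7 ± 8.96 (SD, n = 3). Of the 91 genes, 75 had no IDR summit, and the median rank of the best pooled summit near a gene that had one was 11138, well beyond the end of the IDR list.

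The shares were alike across the classes of snoRNA. IDR summits lay near 6 of 109 C/D genes (5.5%), 6 of 114 H/ACA genes (5.26%), 1 of 16 scaRNA genes (6.25%) and 3 of 30 genes of no named class (10%). In the top lists of replicates 1, 2 and 3 the C/D genes gave 7, 6 and 4, and the H/ACA genes gave 5 in each. The 2 main classes overlap within this spread.

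Distance from the host TSS separated the snoRNA genes more clearly. Of 33 genes up to 500 bp from the nearest host TSS upstream, 8 had an IDR summit within 500 bp (24.2%), with 8, 8 and 6 in the top lists of replicates 1, 2 and 3. Introns of genes without snoRNAs, taken at their midpoint in the same class of distance, had one in 13% of cases. Beyond that, up to 1000 bp, the counts were 1 of 51 snoRNA genes (1.96%) against 2.46% of introns. Between 1000 and 2000 bp they were 0 of 73 against 1.45%, and beyond 2000 bp 2 of 90 (2.22%) against 0.694%. The share of snoRNA genes thus lay near that of introns beyond 500 bp. There it rests on 3 genes in all, and on 0 without replicate 1 or without replicate 2. Those settings also shortened the whole IDR list, to 2074 and 2163 of its 3496 peaks.

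**Figure D1:**
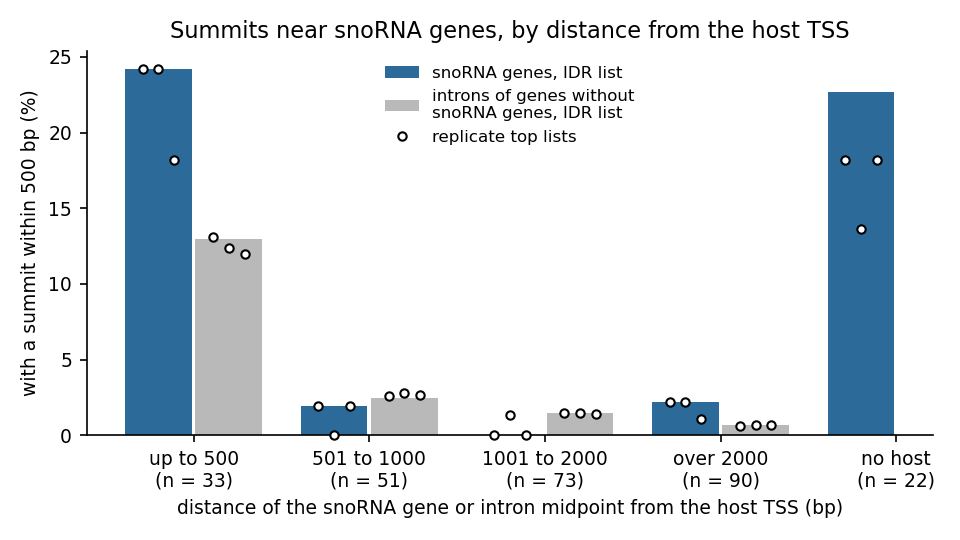
Share of snoRNA genes (blue) and of introns of genes without snoRNA genes (grey) with an IDR summit within 500 bp, in percent, by distance from the host TSS in bp; open points are the top lists of the 3 replicates. Among snoRNA genes in a host, those up to 500 bp from its TSS reached 24.2%, and each class beyond stayed at or under 2.22%.

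Shares in the pooled list also fell with distance, at a higher level, but were alike between 500 and 2000 bp. The counts were 21 of 33 snoRNA genes up to 500 bp (63.6%) against 43.1% of introns, and 17 of 51 between 500 and 1000 bp (33.3%) against 26.7%. They were 25 of 73 between 1000 and 2000 bp (34.2%) against 22.7%, and 12 of 90 beyond 2000 bp (13.3%) against 16.4%. The window around a snoRNA gene starts at both its ends and that around an intron at its midpoint, so the snoRNA window is longer by the length of the gene.

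Introns that held snoRNA genes were also set beside the other introns of the same 92 hosts, with all sequence within 500 bp of a host TSS left out. The 153 snoRNA-bearing introns spanned 155.7 kb and held 6 IDR summits, in 3 of the introns, or 38.5 per Mb. The 378 introns without a snoRNA gene spanned 379 kb and held 15, in 12 of them, or 39.6 per Mb. In the full lists of replicates 1, 2 and 3 the density was 373, 302 and 289 per Mb in snoRNA-bearing introns, against 288, 248 and 214 in the others. These are means of 321 ± 45 and 250 ± 37 (SD, n = 3). The density was higher in snoRNA-bearing introns in each replicate, by 71.4 ± 15.9 per Mb (SD, n = 3), in lists that include background. The share of introns that held a summit was alike. It was 12.4%, 13.1% and 10.5% of snoRNA-bearing introns in these lists, and 12.2%, 12.7% and 11.4% of the others. In replicate 1, 58 summits lay in 19 snoRNA-bearing introns, and 109 lay in 46 of the others. An exact sign test over 3 replicates cannot give a p below 0.25, so no test was run.

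The hosts, by contrast, often had a reproducible peak at the promoter. An IDR summit lay within 500 bp of an annotated TSS of 46 of the 92 hosts (50%), against 18.9% of protein-coding genes that hold no snoRNA gene. The top lists of replicates 1, 2 and 3 gave 48, 47 and 46 hosts, a mean of 47 ± 1 (SD, n = 3), beside 19.1%, 18.5% and 18.1% of those other genes. In 37 hosts all 3 top lists had a summit at a TSS. In the pooled list the count was 80 of 92 hosts (87%), against 54%. Through their hosts, 110 of the 247 hosted snoRNA genes (44.5%) stood behind a promoter with an IDR summit, although 11 of the 247 had one within 500 bp of the snoRNA gene itself.

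Ribosomal protein hosts had a promoter peak most often of the 3 kinds. Among ribosomal protein hosts, 22 of 28 had an IDR summit at a TSS (78.6%), and the top lists gave 23, 21 and 18 (20.7 ± 2.52). Ribosomal protein genes that hold no snoRNA gene had one in 66.7% of 60, and in 68.3%, 68.3% and 58.3% in the top lists. The top-list shares of the hosts were 82.1%, 75% and 64.3%, higher than those of the other ribosomal protein genes in each of the 3 replicates. The mean difference within a replicate was 8.81 ± 4.34 percentage points (SD, n = 3), and the ranges of the 2 sets over the replicates overlapped.

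Hosts that encode other proteins had an IDR summit at a TSS in 22 of 54 cases (40.7%), with 24, 24 and 27 in the top lists, against 18.7% of 13803 like genes without a snoRNA gene. Within a replicate the difference was 27.9 ± 3.6 percentage points (SD, n = 3). This count depended on which TSSs were used. These hosts had 2.02 annotated TSSs on average, against 1.4 for the like genes. At the annotated 5' end of the gene alone, the share was 24.1% (13 of 54), against 17%. Ribosomal protein hosts kept 22 of 28 (78.6%) at the 5' end, against 66.7%. Among genes with a single TSS, the counts were 6 of 26 other protein-coding hosts (23.1%), against 14.7% of like genes, and 10 of 12 ribosomal protein hosts (83.3%), against 50%.

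Of the 10 non-coding hosts, 2 had an IDR summit at a TSS (20%), with 1, 2 and 1 in the top lists, against 5.04% of 3251 non-coding genes that hold no snoRNA gene. They were Uhg4 and Uhg8. With so few hosts, 1 gene moves this share as far as the replicates differ.

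**Figure D2:**
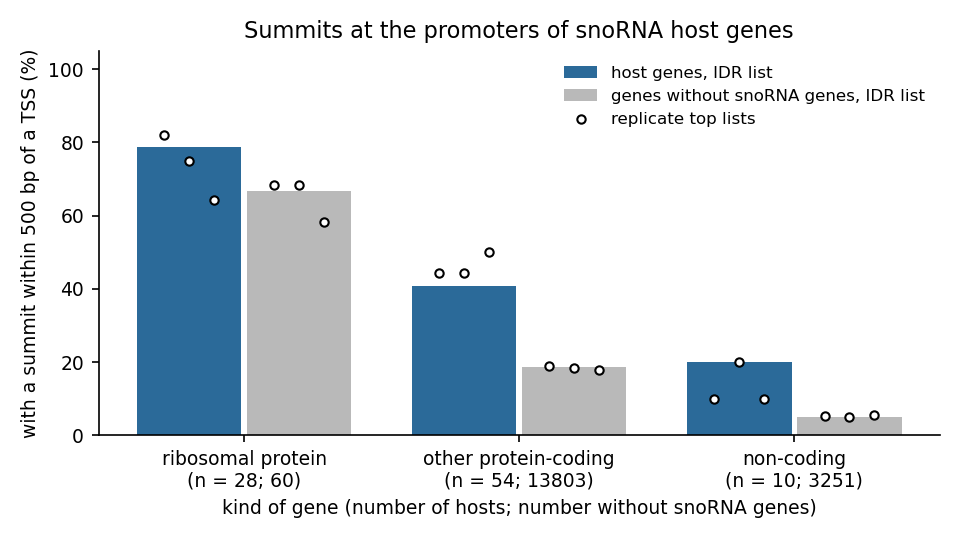
Share of snoRNA host genes (blue) and of genes of the same kind without snoRNA genes (grey) with an IDR summit within 500 bp of a TSS, in percent; open points are the top lists of the 3 replicates. Ribosomal protein hosts reached 78.6% against 66.7%, and other protein-coding hosts reached 40.7% against 18.7%.

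Summits were placed at the start of the host rather than at the snoRNA gene. At the 46 hosts the median distance from the strongest summit to the nearest TSS was 69 bp (4 to 497 bp), and 37 of the 46 lay upstream of it, with a median offset of -61 bp. The median distance was 28.5 bp in ribosomal protein hosts, 142 bp in other protein-coding hosts and 208.5 bp in the non-coding ones. It was 41.5 bp in ribosomal protein genes without snoRNAs. The distance to the nearest snoRNA gene of the host had a median of 1021 bp (141 to 125317 bp). Each of the 46 summits was nearer to the TSS than to the snoRNA gene, which the choice of summits within 500 bp of a TSS sets in part. At 21 of the 46, another gene also had a TSS within 500 bp of the summit, so the peak cannot be assigned to the host alone.

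**Figure D3:**
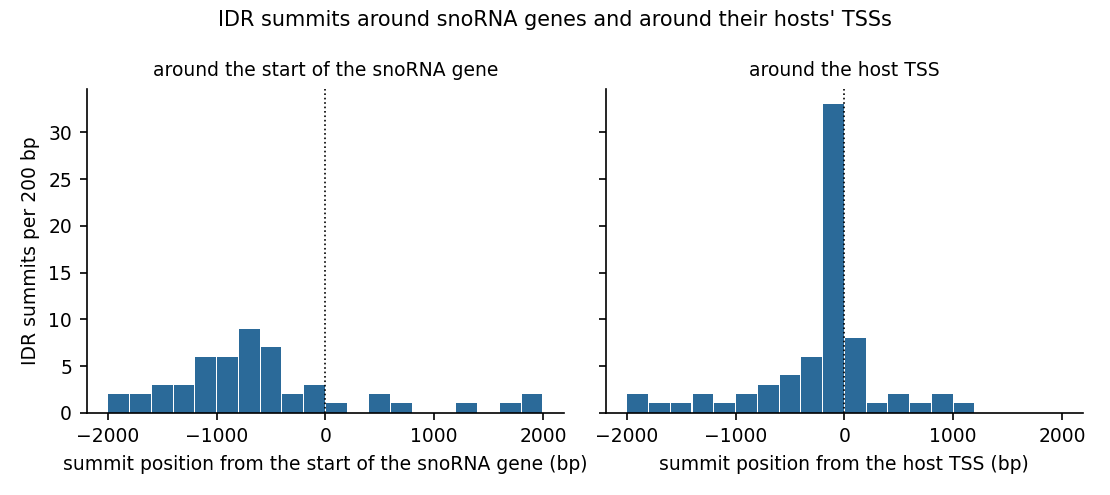
IDR summits per 200 bp within 2000 bp of the start of a snoRNA gene (left) and of a host TSS (right), each summit placed once at its nearest start; negative positions are upstream on the strand of the gene. In the 200 bp before a host TSS there were 33 summits, and in the 200 bp before the start of a snoRNA gene there were 3.

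The strongest host peak was at Stt3A, on X, which encodes the catalytic subunit of the enzyme that attaches glycans to proteins. Its signal was 507.4 in the IDR list, rank 72, with signals of 173.2, 178.7 and 154.9 and ranks 80, 69 and 80 in the lists of replicates 1, 2 and 3. The summit lay 388 bp upstream of the TSS and within 500 bp of the TSS of bves as well, and 1964 bp from the nearest of the 3 snoRNA genes of the host. RpL14, whose snoRNA gene is printed above, had rank 116, and ranks 122, 123 and 108 in the replicates, with the summit 31 bp upstream. This promoter is shared with Nelf-E, a gene of the transcription pausing machinery. The replicates placed these 2 peaks at nearly the same rank.

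The next hosts by rank were CG1142 (rank 155) and Msp300 (rank 172), which encodes a giant protein that anchors nuclei in muscle. The snoRNA gene of Msp300 lay 94221 bp from that summit. Uhg4, a non-coding host with 7 snoRNA genes, followed at rank 178, with ranks 270, 151 and 258 in the replicates and the summit 60 bp upstream of the TSS. After CG12316 (rank 215) came the ribosomal protein genes RpS16 (rank 259), RpL28 (261), RpS20 (293), RpL22 (402) and RpL11 (406). The list of 12 closes with eEF1alpha1, which encodes a translation elongation factor, at rank 458. All 12 ranked within the top 1000 in every replicate.

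The number of snoRNA genes in a host did not follow the strength of its peak. An IDR summit lay at a TSS of 26 of 55 hosts with 1 snoRNA gene (47.3%), 11 of 17 with 2 or 3 (64.7%) and 9 of 20 with 4 or more (45%). In the top lists of replicates 1, 2 and 3, the hosts with 1 gave 29, 25 and 26, those with 2 or 3 gave 10, 13 and 10, and those with 4 or more gave 9, 9 and 10. Hosts with a snoRNA gene up to 500 bp from the TSS had a peak in 10 of 23 cases (43.5%), against 36 of 69 (52.2%) where all lay farther away.

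**Figure D4:**
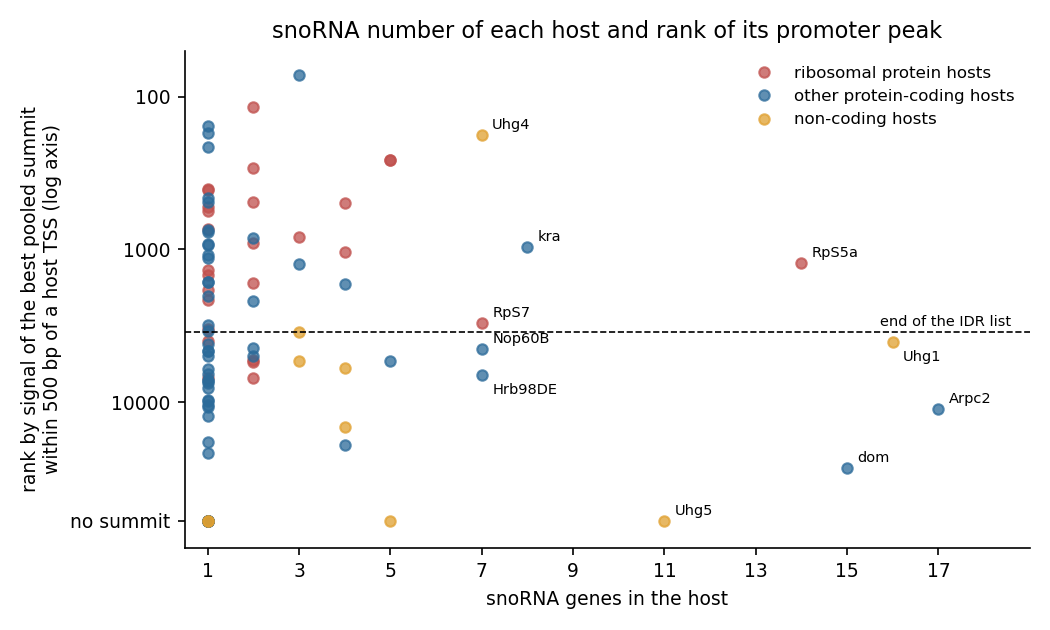
Rank by signal, on a log axis, of the best pooled summit within 500 bp of a TSS of each of the 92 hosts, by the number of snoRNA genes in the host; colours give the kind of host, the dashed line is the end of the IDR list at rank 3496, and hosts without such a summit stand at the bottom. Hosts with 4 or more snoRNA genes lie on both sides of the line, 9 of 20 above it.

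Of the hosts with 4 or more snoRNA genes, the 9 with an IDR summit included 5 ribosomal protein genes with ranks from 259 to 1230, RpS16, RpL28, RpL17, RpL3 and RpS5a, of which RpS5a holds 14 snoRNA genes. RpS5a had rank 1230, and ranks 1263, 1386 and 1122 in the replicates. A further ribosomal protein gene, RpS7 with 7 snoRNA genes, had a weaker peak at rank 3029, with ranks 1631, 2525 and 4912, so it was in the top list of replicates 1 and 2. Uhg4 has been given above. kra, which encodes a regulator of translation and holds 8, had rank 969, and ranks 714 and 1326 in replicates 1 and 2, with no summit within 150 bp in replicate 3. The top list of replicate 3 did hold 2 summits within 500 bp of a kra TSS. lola, a transcription factor gene of axon guidance with 4, had rank 1676, and its summit lay 438 bp upstream of one of its TSSs.

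Of the 5 hosts richest in snoRNA genes, 4 had no IDR summit at a TSS. Arpc2, with 17, had its best pooled summit at rank 11140. Uhg1, with 16, stood at rank 4065, just beyond the IDR list. dom, with 15, which encodes a chromatin-remodelling ATPase, stood at rank 26954. Uhg5, with 11, had no pooled summit within 500 bp of its TSS. Only RpS5a, of the hosts with more than 10 snoRNA genes, had a reproducible promoter peak.

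The other hosts with 4 or more and no IDR summit were Nop60B (7 snoRNA genes, pooled rank 4502), Hrb98DE (7, 6678), CG10576 (5, 5367), Uhg2 (4, 6003), Uhg7 (4, 14654) and Sf3b3 (4, 19109), and lncRNA:CR45184 (5) had no pooled summit. Hrb98DE encodes an RNA-binding protein of the hnRNP A family, and Nop60B encodes the pseudouridine synthase that H/ACA snoRNAs guide. Of the Uhg hosts with 3, Uhg3 had pooled rank 5339 and Uhg8 had IDR rank 3488, near the end of the list. The Uhg8 summit lay 357 bp upstream of its TSS, beside the TSS of CG5199. Of all 46 hosts without an IDR summit at a TSS, 34 had a pooled one and 12 had none.

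The 16 snoRNA genes with an IDR summit within 500 bp shared 14 summits. Of these, 8 lay within 500 bp of the host TSS and accounted for 9 snoRNA genes. They were those of RpL14, Uhg4, RpL28, RpL17, RpS29, RpS12, RpL10Ab and Dek, which encodes a chromatin protein. At Uhg4, 1 summit lay 159 bp before snoRNA:Psi28S-2949 and 472 bp before snoRNA:Or-aca5. At RpL10Ab the summit was 8 bp from the TSS and 141 bp from snoRNA:Psi18S-920, the shortest distance among the 8, at rank 3336. The weakest was at Dek, at rank 3418, and reached a top list in replicate 1 alone, with ranks 2182, 18878 and 11494.

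**Figure D5:**
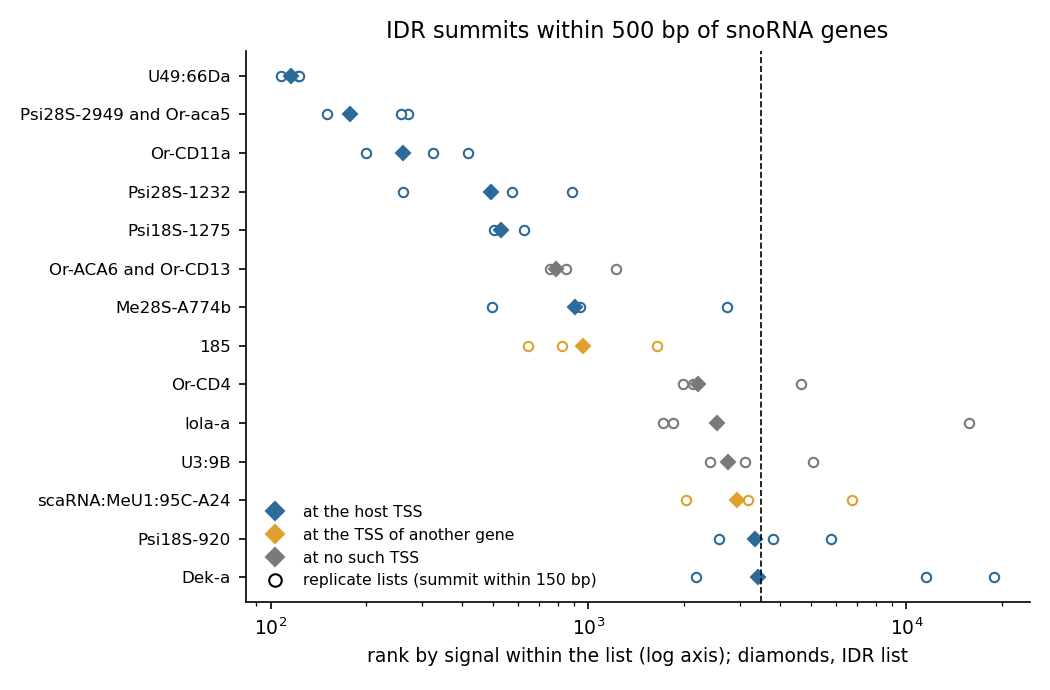
Rank by signal (log axis) of the 14 IDR summits within 500 bp of snoRNA genes; diamonds are ranks in the IDR list, open circles the ranks of summits within 150 bp in the 3 replicate lists, colours the place of the summit, and the dashed line is rank 3496. The 5 strongest lay at host TSSs, and those at no TSS of a gene other than a snoRNA gene ranked from 791 to 2743.

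Another 2 summits lay within 500 bp of the TSS of a neighbouring small RNA gene. snoRNA:185, a gene of 55 bp without a host, had a summit 12 bp before its start, and 367 bp from the start of tRNA:Glu-TTC-1-5. This summit was thus nearer to snoRNA:185 than to the tRNA gene. Its rank was 958, and 645, 1641 and 826 in the replicates. The summit near scaRNA:MeU1:95C-A24 lay 340 bp from it and 18 bp from the start of snRNA:U1:21D, a gene of the U1 spliceosomal RNA. Its rank was 2928, and 3172, 6743 and 2028 in the replicates. These genes are short and some have near-identical copies, and the treatment of reads that match several places is not given in the sources used here.

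A further 4 summits, near 5 snoRNA genes, had no TSS within 500 bp other than those of snoRNA genes. The strongest, at rank 791 and at 755, 847 and 1218 in the replicates, lay between snoRNA:Or-ACA6 and snoRNA:Or-CD13, which have no host on their own strand and lie within egr, on the strand opposite to it; egr is the gene of the fly tumour necrosis factor ligand. Within Uhg5 a summit lay 384 bp from snoRNA:Or-CD4 and 3113 bp from the Uhg5 TSS, at rank 2216 (1979, 2132 and 4653 in the replicates). Within lola a summit lay 479 bp from snoRNA:lola-a and 984 bp from the nearest TSS of lola, at rank 2536 (1841, 1713 and 15753). The summits in Uhg5 and lola were in the top lists of replicates 1 and 2, and in that of replicate 3 neither was.

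U3, which acts in the cleavage of the ribosomal RNA precursor, is transcribed from genes of its own, and 1 of its 3 genes had an IDR summit. In snoRNA:U3:9B the summit lay 138 bases after the start, within the gene, at signal 90.47 and rank 2743, with ranks 3106, 2404 and 5086 in the replicates. The 213 bases of the gene at chrX:10348125-10348337 are shown with the 21 bases centred on the summit in capitals, since it is the only IDR summit inside a snoRNA gene.
snoRNA:U3:9B: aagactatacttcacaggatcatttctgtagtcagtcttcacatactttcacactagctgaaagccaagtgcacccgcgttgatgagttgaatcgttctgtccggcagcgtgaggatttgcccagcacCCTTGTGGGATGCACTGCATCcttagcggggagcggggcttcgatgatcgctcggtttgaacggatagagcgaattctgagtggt
The other U3 genes, snoRNA:U3:54Aa and snoRNA:U3:54Ab, had a pooled summit at 27 bp and 36 bp, at ranks 14059 and 27351, and no IDR summit. The annotation lists no U8 gene.

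As a group, the 22 snoRNA genes without a host had an IDR summit within 500 bp in 5 cases (22.7%) and a pooled one in 16 (72.7%), with 4, 3 and 4 in the top lists. The share in the IDR list was near that of all other annotated genes, 20.6%, and that of snoRNA genes up to 500 bp from a host TSS, 24.2%. The pooled share of tRNA genes was 49%, and that of all annotated genes was not counted. The 5 are the genes just described, snoRNA:185, scaRNA:MeU1:95C-A24, snoRNA:Or-ACA6, snoRNA:Or-CD13 and snoRNA:U3:9B. Of these, snoRNA:Or-ACA6 and snoRNA:Or-CD13 share the same summit. Without replicate 1, with 2074 of the 3496 IDR peaks left, the count was 3 of 22. With a host on the opposite strand allowed, the count was also 3.

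Consensus sequences were sought on both strands from 250 bases before to 50 after every annotated TSS of the hosts. TATCGATA stood in 22 of 92 hosts (23.9%), against 10.1% of protein-coding genes without snoRNAs, and its core CGATA in 66 (71.7%), against 53%. In ribosomal protein hosts the shares were 28.6% and 75%, near those of ribosomal protein genes without snoRNAs, 30% and 73.3%. In other protein-coding hosts they were 25.9% and 75.9%. The full consensus was in 10 of the 46 hosts with an IDR summit at a TSS (21.7%) and in 12 of the 46 without (26.1%). A hit of TATCGATA is also a hit of its core. The core stood in 35 of the 46 with a summit (76.1%) and in 31 of the 46 without (67.4%). All TSSs of a gene were searched, and hosts had 1.92 on average against 1.4 for the other genes, so more sequence was read in hosts. At the annotated 5' end alone, a search added after the data were seen, TATCGATA stood in 18 of 92 hosts (19.6%), against 9.29%, and in 9 of 46 with and 9 of 46 without a summit.

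CACGTG, the E-box, stood in 16 of 92 hosts (17.4%), against 5.28%, and at the 5' end alone in 10 (10.9%), against 4.22%. Over all TSSs it stood in 14.3% of ribosomal protein hosts and in 15% of ribosomal protein genes without snoRNAs. It stood in 7 of the 46 hosts with an IDR summit at a TSS (15.2%) and in 9 of the 46 without (19.6%). Among the 10 non-coding hosts it stood in 4, Uhg1, Uhg2, Uhg3 and Uhg7. None of these 4 had an IDR summit at its TSS, and of all 10 non-coding hosts 2 had one. The share of the E-box in other non-coding genes was not counted. GGTCACACT, which the factor M1BP binds, stood in 9 hosts (9.78%), against 6.76%. AAGTCA, the half-site known for receptors of the NR2E group to which Hr51 belongs, stood in 15 hosts (16.3%), against 19.9%, and AGGTCA in 8 (8.7%), against 7.54%. AAGTCA was in 7 of the 46 hosts with an IDR summit (15.2%) and in 8 of the 46 without (17.4%). Among ribosomal protein hosts it was in 1 of 28 (3.57%), against 13 of 60 ribosomal protein genes without snoRNAs (21.7%). At the 5' end alone it was in 9 of 92 hosts (9.78%), against 16.3% of protein-coding genes without snoRNAs. The half-site of Hr51's own group was thus not more frequent in hosts than in other genes.

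Ribosomal protein genes are known to start within a run of pyrimidines. CTTTT on the strand of the gene, within 10 bases of a TSS, stood in 12 of 28 ribosomal protein hosts (42.9%), against 40% of ribosomal protein genes without snoRNAs and 4.48% of all protein-coding genes without. A run of at least 6 letters C or T, a rule chosen after the promoters were read, stood there in 24 of the 28 (85.7%), against 86.7% and 16%. It stood in 27 of the 46 hosts with an IDR summit (58.7%) and in 16 of the 46 without (34.8%). Hosts with the run are mostly the ribosomal protein genes, in which peaks were frequent with and without snoRNA genes. A match is a description of the letters and not a bound site.

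The genes for the proteins that work with snoRNAs were examined as a list of 12. An IDR summit lay within 500 bp of a TSS in 5 of the 12, read against 18.9% of protein-coding genes that hold no snoRNA gene. Of the C/D proteins, Fib, the methyltransferase, had rank 1631 (2326, 2272 and 881 in the replicates). nop5 and hoip had pooled but no IDR summits, at ranks 9872 and 4419, and Nop56 had none. nop5 also had a summit at a TSS in the top lists of replicates 2 and 3, and hoip in none of the top lists. Of the H/ACA proteins, NHP2 had rank 1017 (1757, 1309 and 597), whereas Nop60B, Gar1 and Nop10 had pooled summits at ranks 4502, 4821 and 6062. Nop60B also had a summit at a TSS in the top list of replicate 3, Gar1 in that of replicate 1, and Nop10 in none. Each class of complex thus had 1 core gene in the IDR list.

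The remaining 3 with an IDR summit act beside the core proteins. Nopp140, a nucleolar and Cajal body protein that binds snoRNA complexes, had rank 1673 (1715, 996 and 5165). The ATPases pont and rept, which help to assemble the complexes, had ranks 2030 and 1057. For pont no summit lay within 150 bp in replicate 2, although the top list of that replicate held 1 within 500 bp of a pont TSS. CG10341 had no pooled summit at its TSS. Without replicate 1, with 2074 of the 3496 IDR peaks left, the count of the list was 3 of 12. Fib, nop5 and Nop60B are themselves snoRNA hosts.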

How the data were processed

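The labels describe ChIP-seq of 3 biological replicates of 1 group. Per the labels and the deposited README text, the authors made a relaxed peak list per replicate from its alignment and 1 further file, a pooled list from the 3 alignments and that file, and an IDR list from these. Neither aligner nor peak caller is given in the sources used here. Signal as deposited for each peak and the deposited -log10 q value have no stated scale between lists, so signal was used to rank peaks within a list, and -log10 q, at a minimum of 2, in 1 alternative. The peaks of the IDR list were those of highest signal in the pooled list.

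Summit positions came from the 5 dm6 lists. Genes and TSSs came from Ensembl release 115 and sequences from Release 6 of the genome. A host was a gene of another biotype (no pseudogene or transposable element) on the same strand that held the whole snoRNA gene, the shortest where 2 did (11 snoRNA genes). Distance ran to the nearest host TSS at or upstream of the snoRNA gene. Ribosomal protein genes were recognised by name (88). A replicate value of an IDR summit is that of a summit within 150 bp. A single group of 3 gives no test. Named were all Uhg hosts, hosts of 4 or more snoRNA genes, the 12 hosts of highest IDR signal, snoRNA genes with a peak and no host or away from the host TSS, U3 genes and the proteins listed; other names were chosen after their values were seen. The members and lists were chosen with earlier results of these data known. Calculations (Python 3.11.15, numpy 2.4.6, pandas 2.3.3, matplotlib 3.10.9) were checked on simulated data. The dm3 lists were not used here.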

Additional observations from a re-analysis of the deposited data

How the results depend on the processing

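Windows, lists and replicates moved many counts. With summits within 250 bp the counts were 4 snoRNA genes in all, 2 up to 500 bp from the host TSS, 0 beyond, 2 without a host, 2 summits at host TSSs, 45 genes in the pooled list and 3.67 in the top lists. Within 1000 bp they were 46, 13 and 27, with 25 summits at host TSSs, 158 in the pooled list and 44.3 in the top lists. The 1748 IDR peaks of highest signal gave 10 genes, 0 beyond 500 bp and 3 without a host. All pooled peaks gave 91 genes, 80 hosts, 21 and 54 genes up to and beyond 500 bp, 16 without a host, 24 summits at host TSSs and 10 snoRNP protein genes; with -log10 q of at least 2 the pooled count was 24. All replicate peaks gave a mean of 85.7 genes. A host on either strand (101 hosts) gave 5 genes beyond 500 bp and 3 without a host. The core CGATA stood in 66 hosts, and TATCGATA within 50 bases of 4 host summits. Leaving out each replicate gave 10 to 13 genes, 35 to 40 hosts, 7 genes up to 500 bp and 0 to 2 beyond (0 without replicate 1 and without replicate 2), 3 to 4 without a host, 6 summits at host TSSs, 3 to 4 protein genes and 13 to 14.5 genes in the top lists. Leaving out replicate 1, 2 or 3 also shortened the IDR list itself, to 2074, 2163 and 2374 of the 3496 peaks. Of all values, 39, some of them listed above, differed by less than 1.5 times or less than the replicate spread. TATCGATA at the 5' end of 18 hosts, a setting added after the data were seen, was among these 39. The cause was not tested.

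No paired analysis between groups of samples was possible because there is 1 group; gene sets were compared within each replicate. Depth is unknown, relaxed lists include background, and the absence of a listed peak does not show absence of binding. There is no control library among the samples. A promoter shared with a neighbour cannot be told apart from the host's.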

Other observations

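Replicate 1 stood apart in its count of snoRNA genes on 1 arm. Of the 48 snoRNA genes on 3R, its full list had a summit within 500 bp of 35, against 18 and 17 in the lists of replicates 2 and 3. Its count in the top list, 2 of 48, lay beside 1 and 2 in the other replicates, so the difference was in weak peaks. On 2L the full lists gave 8, 13 and 9 of 41 genes and on X 9, 10 and 9 of 31. On 2R they gave 26, 26 and 30 of 96, and on 3L 18, 14 and 15 of 52. Genes of the same host were counted singly, such as the 7 of RpS7 and the 8 of kra on 3R. The share over all genes of 3R was not counted, so whether the difference is particular to snoRNA genes was not tested.

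snoRNA genes that overlap an annotated exon of the host had a pooled summit within 500 bp in 11 of 20 cases (55%), against 64 of 227 that lie wholly in introns (28.2%). In the IDR list the counts were 1 of 20 (5%) and 10 of 227 (4.41%). The full lists of replicates 1, 2 and 3 gave 11, 9 and 7 of the 20, and 74, 59 and 57 of the 227. The 2 sets were not matched for distance from the host TSS. The pooled share of snoRNA genes was 63.6% up to 500 bp from it and 13.3% beyond 2000 bp.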
